A study of Xenopus tropicalis with 8 samples.

Results

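The gene gpr162 of the frog Xenopus (Silurana) tropicalis encodes an orphan receptor, one for which no ligand is established. It is 1 of 4639 genes with a symbol on the arrays, and it was read from 1 probe, printed as 2 spots on every array, whose name marks it as specific. The probe was found through its transcript accession, which without its version belongs to gpr162 in RefSeq's table of genes for the assembly UCB_Xtro_10.0. The gene was picked out because its values differed between finasteride and control arrays, so its levels and their difference are given as a description, with no test.

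G protein-coupled receptors cross the cell membrane several times and, when a ligand binds, pass the signal to G proteins inside the cell, which act on enzymes such as adenylyl cyclase and phospholipase C. Regulators of G protein signalling end the signal, and receptor kinases and arrestins silence the receptor. GPR162 of mammals belongs to the large rhodopsin-like class, is best known from the brain, and has GPR153 as its closest relative. What it does in a testis is not established.

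Testis tissue came from juvenile males and was cultured in L-15 medium at 26 °C for 6 h, either with finasteride at 5 µM (4 arrays) or at 0 µM as the control (4 arrays). Finasteride blocks steroid 5-alpha-reductase, the enzyme that turns testosterone into dihydrotestosterone. Per the design text each arm had 8 samples, and 4 arrays per arm were analysed here. How those samples relate to the arrays is not given. No strain, genotype or age beyond the juvenile stage is given, and the labels do not say whether an array holds 1 animal or a pool, so the spread between arrays may be technical.

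The arrays lay on 2 slides with 2 finasteride and 2 control arrays each. Each array's 75th percentile (processed intensity) lay between 896 and 1798 on finasteride arrays and between 719 and 1686 on control arrays, and probes well above background made up 70.5% to 86.9% and 73.3% to 77.2% of all probes. Finasteride 4, at 70.5%, had the lowest share of the 8. Positions 2 and 4 of a slide held only finasteride and positions 1 and 3 only control arrays, so treatment cannot be told apart from position. Correlations of the arrays over the tested probes ran from 0.965 to 0.976 within finasteride, from 0.968 to 0.987 within control and from 0.961 to 0.984 between the groups. The precision of every value below is limited by the number of arrays.

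On the processed scale, in arbitrary intensity units, the first spot of gpr162 read 231, 310.9, 400.5 and 1493 on finasteride arrays 1 to 4, against 1723, 3524, 3094 and 1418 on control arrays 1 to 4. The second spot read 222.5, 323.4, 402.8 and 1538 on the same finasteride arrays, against 1743, 3495, 3164 and 1406 on the control arrays. Finasteride 1, 2 and 3 were thus dim on both spots, and finasteride 4 was brighter than control 4. That order includes the overall brightness of each array, which the level removes. The local background beside the spots was between 32 and 44.5 on all 8 arrays, and all 16 spots were marked well above background, with none saturated and none an outlier.

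The level of gpr162, the mean log2 processed intensity of the 2 spots minus the array's 75th percentile over all probes, was -1.98, -2.50, -2.05 and 0.44 on finasteride arrays 1 to 4, against 1.27, 1.25, 0.89 and 0.78 on control arrays 1 to 4. A level of 0 is that percentile. The groups did not overlap, and finasteride 4 lay 0.33 below the lowest control array but 2.43 above the next finasteride array. The mean was -1.52 ± 1.33 on finasteride arrays and 1.05 ± 0.25 on control arrays (SD, n = 4 each), a log2 difference of -2.57, or 5.94-fold lower with finasteride. Without finasteride 4 the difference was -3.23. In bulk tissue, fewer cells of a type and less RNA per cell cannot be told apart.

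**Figure D1:**
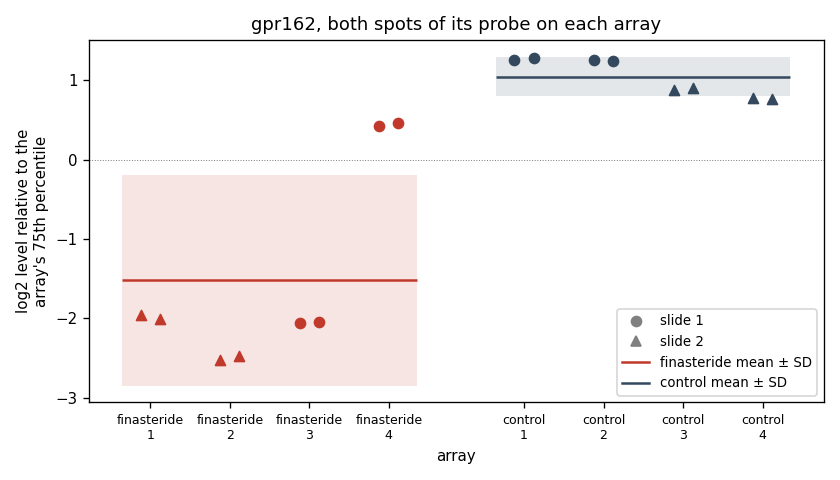
Level of gpr162 (log2, relative to the array's 75th percentile) on 4 finasteride arrays (red) and 4 control arrays (dark blue). The 2 points of an array are the 2 spots, circles are slide 1 and triangles slide 2, and line and band are the mean ± SD of 4 arrays. Finasteride 1 to 3 sit near -2, finasteride 4 at 0.44 and the control arrays between 0.78 and 1.27.

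Placed in order, the levels formed a low set of 3 finasteride arrays and a high set of 5. In the low set, finasteride 2 at -2.50 lay 0.45 below finasteride 3 at -2.05, which lay 0.07 below finasteride 1 at -1.98. In the high set each array lay between 0.02 and 0.36 from the next one up. The steps of 0.45 and 0.36 are larger than the control SD of 0.25, and the step of 0.33 between the groups is no larger than they are. The other steps inside the sets are below that SD, and only the step of 2.43 is larger than the finasteride SD of 1.33.

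The 2 spots stood far apart on the array, in rows 43 and 331, and gave the same levels. They differed by 0.008 to 0.056 on the log2 scale over the 8 arrays. For the tested probes with 2 spots the median difference was 0.077 to 0.109, so the gpr162 spots lay closer together than the median pair on every array. The raw median brightness, before the scanner software's processing, was 1.15 to 1.29 times higher for the second spot than for the first on all 8 arrays, and processing removed most of that. The distance of 2.43 between finasteride 4 and the other finasteride arrays is seen in either spot.

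Both slides had lower gpr162 on finasteride arrays. On slide 1, the level was -2.05 on finasteride 3 and 0.44 on finasteride 4, against 1.27 on control 1 and 1.25 on control 2, a difference of means of -2.06. On slide 2, it was -1.98 on finasteride 1 and -2.50 on finasteride 2, against 0.89 on control 3 and 0.78 on control 4, a difference of -3.08. Slide 2 minus slide 1, with treatment as a covariate, was -0.93 for gpr162, with means of -2.24 and -0.80 on finasteride arrays and of 0.83 and 1.26 on control arrays. Over all probes 0 of 25652 differed between slides (0%, with 491 at an unadjusted limma p under 0.05).

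Over all probes, limma called 0 of 25652 higher (0%) and 0 lower (0%) under finasteride at an adjusted p under 0.05, with 585 and 440 at an unadjusted p under 0.05. The groups did not overlap in the lower direction for 271 probes, 1.06% of those tested. Of the 25596 probes with a value on every array, 6 had a difference at or below -2.57, gpr162 among them, and of these 6 the groups failed to overlap in gpr162 alone. Since the gene was picked from this contrast, nothing is read from that.

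The way the arrays of gpr162 fell apart was set beside the other probes. Its range over the 8 arrays was 3.77, where the median probe had 0.94 and 0.942% of probes had a range as wide. Its largest gap between neighbouring values was 2.43, where the median probe had 0.35 and 122 of 25596 had a gap as wide. A gap of at least 1 was found in 1274 probes. In 1 of these, namely gpr162, the gap set finasteride 1, 2 and 3 below the other 5 arrays, and in 7 it set the same arrays above the other 5. Its SD over control arrays, 0.25, was near the 0.23 of the median probe, and over finasteride arrays it was 1.33, where the median probe had 0.35. These measures come from the same values by which the gene was picked, so nothing is read from where it stands among the probes.

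**Figure D2:**
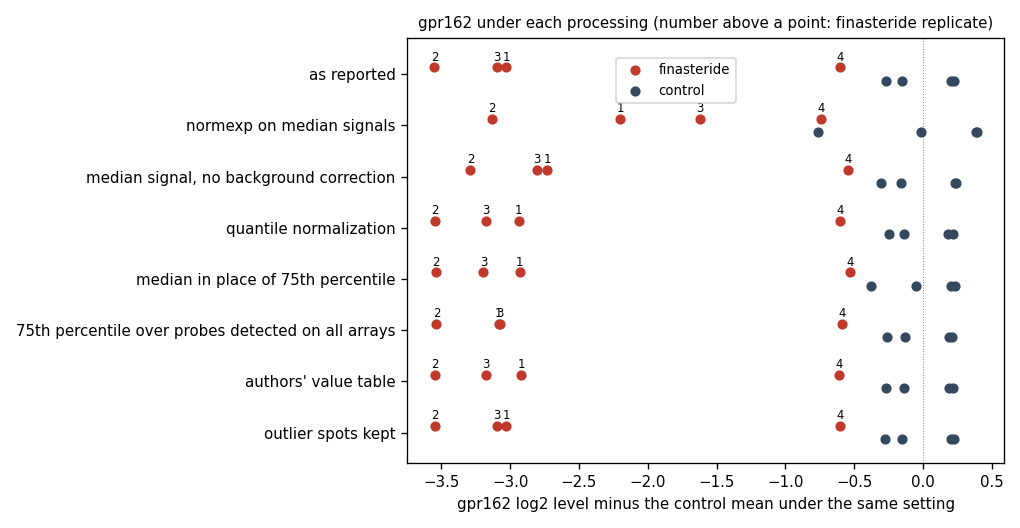
Level of gpr162 on each array minus the control mean under the same processing (log2), with finasteride arrays in red (replicate number above the point) and control arrays in dark blue, 4 each per row. Finasteride 1 to 3 lie below all control arrays in all 8 rows, and finasteride 4 lies below them in all but the row for normexp, where it is at 0.094 and control 4 at 0.076 before the control mean is taken off.

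The difference held its direction in every way of processing tried. The gap between finasteride 4 and the next finasteride array was 2.43 as reported and 2.19 on median signals without background correction. It was much smaller only with normexp. In the authors' deposited table of log2 values the probe had a mean of 8.72 ± 1.33 on finasteride arrays and 11.3 ± 0.24 on control arrays (SD, n = 4 each). With normexp background correction on median signals, the levels were -1.36, -2.29, -0.79 and 0.094 on finasteride arrays 1 to 4, against 1.23, 1.22, 0.83 and 0.076 on control arrays 1 to 4. There finasteride 4 and control 4 overlapped, the difference was -1.92, and finasteride 4 lay 0.88 above the next finasteride array. The median difference of all tested probes, finasteride minus control, was 0.23 in that setting and 0.006 as reported.

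Other probes were ranked by how closely their levels moved over the arrays with those of gpr162. The likeness was the root mean square difference from gpr162 over the 8 arrays, after each probe's own mean was taken off, so that shape and size both count. Its median over 25595 probes was 1.57, and the nearest 10 probes lay between 0.94 and 1.06. Of these 10, 4 had a gene symbol, and 4 were xhyb probes, whose specificity for 1 transcript was not tested. A probe with equal levels on all arrays lies as far off as gpr162's own spread. Since gpr162 was picked for a large difference, few probes could come near it, and nothing is read from how few did. Arrays and group labels are shared by all these comparisons, so likeness is a description with no p.

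The nearest named gene was znf365, a zinc finger gene, at 0.97. Its level was -1.70, -0.95, -1.62 and -0.25 on finasteride arrays 1 to 4, against -0.03, 0.90, -0.85 and 0.69 on control arrays 1 to 4. The ranges overlapped, since control 3 fell among the finasteride arrays. The mitochondrial RNA-processing gene ybey, at 1.01, read -4.01, -4.78, -4.85 and -2.86 on finasteride arrays 1 to 4, against -3.57, -2.80, -3.98 and -2.75 on control arrays 1 to 4. As in gpr162, finasteride 4 was the highest of its group, but controls 1 and 3 also lay low.

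The gene tmc2, at 1.06, encodes a transmembrane channel-like protein, part of the mechanosensory channel of inner ear hair cells in mouse. It read -3.04, -3.40, -3.76 and -2.37 on finasteride arrays 1 to 4, against -2.52, -2.23, -2.49 and -2.15 on control arrays 1 to 4. The gene smc4, at 1.06, encodes a core subunit of condensin, the complex that compacts chromosomes for division. It read -0.65, -0.59, -0.16 and 0.43 on finasteride arrays 1 to 4, against 0.42, 1.06, 0.61 and 0.13 on control arrays 1 to 4. In both genes finasteride 1 to 3 lay below every control array and finasteride 4 lay among the controls. The largest gap in tmc2 was 0.52 and lay just above finasteride 1 to 3, as the gap of 2.43 did in gpr162. In smc4 the largest gap was 0.46 and lay between control 3 at 0.61 and control 2 at 1.06, so it did not set finasteride 1 to 3 apart. The limma adjusted p for finasteride against control was 1.00 for each of these 4 genes.

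The other 6 of the nearest 10 have no gene symbol here. The closest of all, GT_EA519_mRNA_xhyb_009935 at 0.94, read -4.33, -4.55, -2.73 and -2.04 on finasteride arrays 1 to 4, against -2.55, -2.46, -2.30 and -2.01 on control arrays 1 to 4. Only finasteride 1 and 2 stood clearly low there. The probe GT_EA519_mRNA_specific_003061, at 1.01, had the highest correlation with gpr162 among the 10 (Pearson r = 0.96 over 8 arrays) and read -3.57, -3.68, -3.27 and -2.51 on finasteride arrays, against -2.17, -2.57, -2.52 and -2.28 on control arrays.

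**Figure D3:**
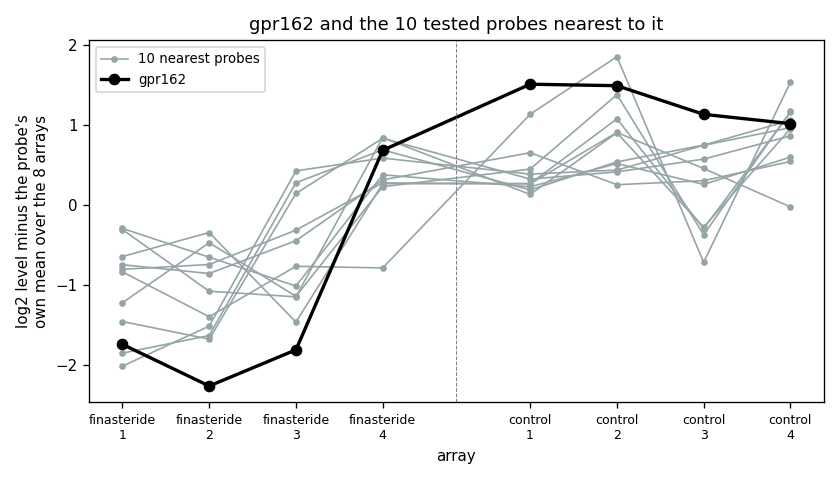
Log2 level minus the probe's own mean over 8 arrays for gpr162 (black) and the 10 tested probes nearest to it (grey), with 4 finasteride arrays left of the dashed line and 4 control arrays right of it. Lines join the values of 1 probe and imply no order of arrays. The probe of gpr162 spans 3.77 in all and drops further on finasteride 1 to 3 than most of the grey probes.

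By correlation alone, which sets size aside, 10 of 25595 probes reached an r of 0.9 or more with gpr162 over the 8 arrays and 41 an r of -0.9 or less. The median r was -0.037. Of the 10, 2 had a gene symbol. The gene arl6, which encodes a small GTPase of ciliary transport (r = 0.91, an xhyb probe), read -2.13, -2.0, -2.04 and -1.83 on finasteride arrays 1 to 4, against -1.82, -1.80, -1.78 and -1.71 on control arrays 1 to 4. The groups did not overlap, though finasteride 4 came next to control 1, and the difference was -0.22. The other was tmc2 (r = 0.91).

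The next 8 named genes had r between 0.84 and 0.89. They were smc4, dnajc30, a co-chaperone gene of mitochondria, slf2, a gene of the SMC5-SMC6 repair pathway, maob, a monoamine oxidase gene, p2ry10, a receptor gene, zbtb47, a zinc finger gene, cap2, an actin regulator gene, and spsb4, a SOCS box gene. Their differences ran from -0.80 in smc4 to -0.18 in slf2, so they resembled gpr162 in shape far more than in size. Of the 8, maob, zbtb47 and spsb4 had groups that did not overlap, as in 1.06% of all probes in the lower direction. All 8 were picked for their correlation with gpr162, whose groups do not overlap, so nothing is read from that count. In spsb4, finasteride 4 lay within its own group, at -0.51 beside -0.69, -0.75 and -0.47. None passed in limma (adjusted p = 1.00 each).

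The genes with the lowest r were nppb, a natriuretic peptide gene (-0.92), zic5, a transcription factor gene (-0.92), esrrgr (-0.91), abcg2, an efflux transporter gene (-0.88), and pop5, a ribonuclease P subunit gene (-0.88). For zic5 the level was -3.09, -2.94, -3.00 and -4.86 on finasteride arrays 1 to 4, against -4.22, -4.65, -4.58 and -4.01 on control arrays 1 to 4. Finasteride 4 lay below all control arrays there while the other 3 finasteride arrays lay above them. The difference was 0.90 (95% interval -0.01 to 1.80, limma adjusted p = 1.00). The gene pop5 was well above background on 3 finasteride arrays and no control array, so it entered the test only through finasteride arrays. Its measured difference was 0.70 (95% interval 0.32 to 1.08, limma adjusted p = 1.00). With control values raised, where lower, to the array's weakest signal well above background, the finasteride mean was 1.60-fold higher. The dim finasteride array was counted there at its own signal, so 1.60 is not a strict lower bound.

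Taking each group's own mean off first leaves only the variation inside the groups. By that measure the 5 closest named genes were uba6, trpm6, eml2, zfp36l2.2 and arsh, with r of 0.94 to 0.96. Over 25595 probes, 92 reached an r of 0.9 or more by that measure and 126 an r of -0.9 or less. In each of the 5, finasteride 4 was the highest finasteride array, as in gpr162, and the group difference lay between -0.03 and 0.16. Inside the groups of gpr162, finasteride 4 lies furthest from its mean. The 5 were picked for likeness there, so nothing is read from its place in them. The ubiquitin-activating enzyme gene uba6 read -2.34 on finasteride 4 and -2.73, -2.87 and -2.88 on finasteride 1, 2 and 3, against -2.84, -2.81, -2.82 and -2.87 on control arrays 1 to 4. There finasteride 4 stood above the controls, not beside them. The ion channel gene trpm6 read 0.38 on finasteride 4 and -0.44, -0.83 and -0.38 on finasteride 1, 2 and 3, against -0.42, -0.34, -0.41 and -0.40 on control arrays 1 to 4.

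Other receptor genes of the family were set beside gpr162. Of 312 receptor genes in the list, 105 had a named probe and 68 were tested. None passed in limma in either direction (0 of 68, against 0% of all probes), with 6 of 68 at an unadjusted p under 0.05, where 1023 of 25596 probes were. Values were higher under finasteride in 34 and lower in 34, with a median difference of 0.008 and extremes of -1.23 and 1.16, where the median of all tested probes was 0.006. Groups without overlap were found in 0 of the 68, against 1.02% of all probes in the higher, 1.06% in the lower and 2.07% in either direction. No member had a range over the arrays as wide as the 3.77 of gpr162, which was picked for its difference. The widest was 3.02, and the median 1.13. The receptor probes were dimmer than most, with a median level of -4.07, where that of all tested probes was -1.41. Of the 68, 69.1% were well above background on all 8 arrays, as gpr162 was, so the list is not matched to gpr162 in brightness. A probe of gpr153 was not analysed here.

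Receptor genes among the 6 with the lowest unadjusted p are given as values, each with a limma adjusted p of 1.00. The receptor gene gpr35 read -5.32, -4.78, -5.13 and -5.12 on finasteride arrays 1 to 4, against -3.86, -3.18, -5.55 and -2.85 on control arrays 1 to 4, a difference of -1.23 (95% interval -2.35 to -0.12). Control 3 was the lowest of all 8, so the groups overlapped. The melanopsin gene opn4, which encodes a light-sensing receptor, had a difference of 0.64 (0.07 to 1.20), and the mu opioid receptor gene oprm1 0.74 (0.17 to 1.31), with oprm1 well above background on 3 finasteride arrays and 1 control array. The probe of oprm1 thus entered the test only through finasteride arrays.

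The probes of hcrtr2 and oprd1 stayed dim, not well above background, on all 4 control arrays. They entered the test only through the finasteride arrays, where they were higher, and were then picked for a low p. Each control array was then given either the probe's own signal or the weakest signal that still counted as well above background there, whichever was higher. The finasteride mean was then 1.85-fold higher for hcrtr2, an orexin receptor gene, and 1.57-fold higher for oprd1, the delta opioid receptor gene. The measured means were -5.53 and -6.69 for hcrtr2 and -5.92 and -6.66 for oprd1, in each pair finasteride before control. A dim value can lie above that weakest signal, as in hcrtr2 on control 3 (-5.89 against -6.754), so the folds are not strict lower bounds. They do not allow for the spread between arrays, and the groups overlapped in both genes.

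The receptor nearest to gpr162 by correlation was p2ry10 (r = 0.87 over 8 arrays). It read -5.19, -4.90, -4.96 and -4.38 on finasteride arrays 1 to 4, against -4.61, -4.39, -4.54 and -4.43 on control arrays 1 to 4. Finasteride 1 to 3 lay below every control array and finasteride 4 above every one. The difference was -0.36 (95% interval -0.79 to 0.07, adjusted p = 1.00).

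Genes of the machinery behind these receptors were the second list, with 101 genes, of which 33 had a named probe and 32 were tested. None passed in limma (0 of 32, against 0% of all probes), 0 had an unadjusted p under 0.05, where 1023 of 25596 probes did, and 0 had groups without overlap, against 2.07% of all probes in either direction. Counts of 0 among 32 are near those shares. Values were higher in 13 and lower in 19, with a median of -0.051. Among G proteins, the alpha subunit gene gnaq had a difference of -0.16 (95% interval -0.73 to 0.40) and the gamma subunit gene gng10 0.36 (-0.24 to 0.96). Among adenylyl cyclases, adcy1 had -0.39 (-0.90 to 0.11), while adcy4 had 0.10 (-0.37 to 0.58) and adcy6 0.13 (-0.30 to 0.57). Among the genes that end or silence the signal, rgs14 had -0.24 (-0.64 to 0.17), rgs13 -0.27 (-0.77 to 0.22), the arrestin gene arrb1 -0.07 (-0.55 to 0.41) and the receptor kinase gene grk3 -0.04 (-0.36 to 0.28). The kinase anchor gene akap6 had -0.32 (-0.86 to 0.23), and rgs8, dim on all 4 control arrays, had 0.45 (-0.16 to 1.06), with groups that overlapped. Of these, gnaq, arrb1 and grk3 were chosen after their values were seen, to stand for their classes. So were adcy4 and adcy6, the other tested cyclases.

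The gene akap17a, chosen for its spread and read from an xhyb probe, was well above background on 3 finasteride and 2 control arrays. It read -0.03, -8.38, -1.66 and -0.59 on finasteride arrays 1 to 4, against -1.18, -7.85, 0.12 and -7.51 on control arrays 1 to 4. The values on finasteride 2 and controls 2 and 4 lie below the weakest signal well above background on those arrays, so their size has no meaning beyond being dim. The dim arrays fell in both groups, unlike the low arrays of gpr162.

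**Figure D4:**
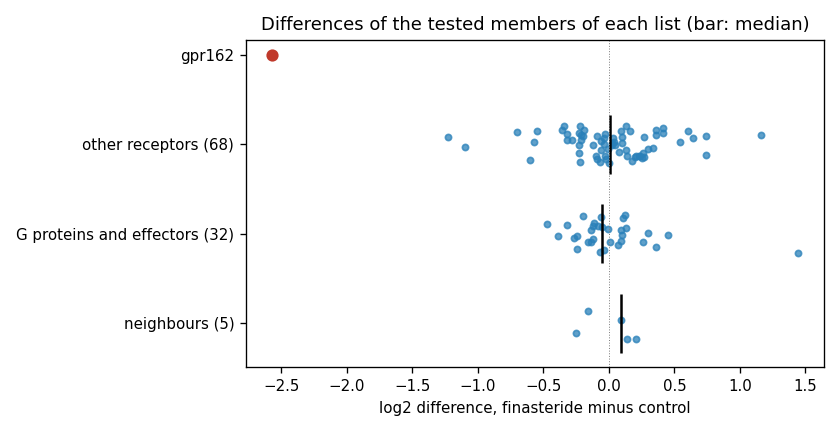
Log2 difference (finasteride minus control) of gpr162 (red) and of each tested member (blue points) of 3 lists, 68 other receptors, 32 G proteins and effectors and 5 chromosomal neighbours, with the median as a black bar. The highest point, akap17a, rests on arrays where its probe was dim and has no exact size, the other members lie between -1.23 and 1.16, and gpr162 lies at -2.57.

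Beside gpr162 in the order of the RefSeq table lie p3h3, a collagen prolyl hydroxylase gene, and gnb3, a G protein beta subunit gene, on one side, and mlf2 and pianp on the other, with provisional loci between them. None of the genes within 5 places had a matched probe, so they were not analysed here. Of the 30 genes within 15 places, 5 had a tested probe. None passed in limma (0 of 5, against 0% of all probes), and their differences ran from -0.25 to 0.21, with a median of 0.094.

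The nucleolar gene nop2, at place 14, read 1.06, 1.06, 1.1 and 0.91 on finasteride arrays 1 to 4, against 0.81, 0.90, 0.89 and 0.67 on control arrays 1 to 4. Its groups did not overlap, as in 1.02% of all probes in that direction, and the difference was 0.21 (95% interval -0.11 to 0.53, limma adjusted p = 1.00), opposite in sign to that of gpr162. The condensin gene ncapd2, at place 9, had 0.14 (-0.37 to 0.65), the locus LOC733932, at place 6, 0.09 (-0.24 to 0.43), the transcriptional corepressor gene atn1, at place -12, -0.16 (-0.67 to 0.36), and iffo1, at place 13, -0.25 (-1.06 to 0.56). A negative place lies before gpr162 in the table. Correlations of the 5 with gpr162 over the 8 arrays were at most -0.03.

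Markers of the cell types that the tissue could hold were checked on the same arrays. Of 156 genes in 10 lists, 34 had a named probe and 25 were tested, so most could not be assessed. Of the defining testis markers, amh, sox9, cyp17a1 and cyp11a1 had no named probe here, and the meiosis gene sycp3 had one that was well above background on none of the 8 arrays, while star, the germ line genes piwil1 and dnd1 and the meiosis gene hormad1 were well above background on all 8. Summed levels (multiples of the array's 75th percentile) ran from 12.9 to 14.4 on finasteride arrays and from 11.8 to 13.8 on control arrays for 4 spermatid and flagellum genes. They ran from 1.84 to 3.24 and from 2.03 to 2.74 for 3 Sertoli cell genes, from 0.499 to 0.93 and from 0.45 to 1.04 for the Leydig cell gene star, and from 5.28 to 15.2 and from 4.39 to 11.7 for 3 genes of neurons and glia, finasteride before control in each. Sums ran from 11.2 to 18.1 and from 11.4 to 16.8 for hormad1, from 1.12 to 2.05 and from 1.08 to 1.86 for piwil1 and dnd1, and from 0.0722 to 0.151 and from 0.0583 to 0.612 for 2 erythrocyte genes, in the same order. They ran from 8.81 to 11.2 and from 9.77 to 11.4 for 3 leukocyte genes, from 0.105 to 0.387 and from 0.142 to 0.239 for the fat body gene lpl, and from 10.1 to 14.2 and from 9.74 to 11.7 for 5 kidney genes. The ranges of the 2 groups overlapped in all 10 lists, but a sum follows its brightest probe.

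Read singly, 3 of the 25 tested markers had groups that did not overlap, against 2.07% of all probes in either direction, and 0 of the 25 passed in limma. That count uses values rounded as given here. The Sertoli cell gene krt18.2 was a tie, at -4.41 on finasteride 1, its lowest finasteride array, and on control 3, its highest control array. The kidney transporter gene slc12a3 read -2.09, -1.54, -2.45 and -1.56 on finasteride arrays 1 to 4, against -1.30, -1.30, -1.51 and -0.55 on control arrays 1 to 4, lower with finasteride as gpr162 was. The membrane skeleton gene epb41, from the erythrocyte list, read -4.33, -4.93, -4.17 and -3.79 on finasteride arrays 1 to 4, against -5.27, -5.28, -5.81 and -5.91 on control arrays 1 to 4, with 1 control array well above background. It entered the test, and so the count of 3, only through finasteride arrays, where it was higher. The spermatid gene spata6 read -2.16, -2.39, 0.25 and -1.89 on finasteride arrays 1 to 4, against -2.60, -2.54, -2.54 and -2.53 on control arrays 1 to 4, with finasteride 3 far above the rest. In 0 of the 25 did finasteride 1, 2 and 3 all lie below, or all above, the other 5 arrays. The part of these markers in the gpr162 result was not tested.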

How the data were processed

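RNA of 8 testis samples was hybridised in one colour (Cy3) to Agilent arrays, 4 per group. The authors deposited spot intensity as the scanner software wrote it (Feature Extraction 10.7.1.1, build JGI 4.1, both per the file headers), and how its background was corrected is not given in these sources. The authors' deposited table of log2 values has a median of 7.25 on every array and matched a quantile normalization of log2 processed intensity over all spots to within 0.00104. The direction is that of the intensity, and within that match no further centring is seen.

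From these, log2 processed intensity was averaged over a probe's spots without outlier and control spots, less the 75th percentile of all probes on that array. Tested were the 25652 of 32899 probes well above background on at least 3 of 4 arrays of either group. Finasteride and control were compared by limma 3.58.1 under R 4.3.3 (two-sided, Benjamini-Hochberg over the tested probes, threshold 0.05, 95% intervals), a step that was tested on simulated data. Without versions, 5891 probes matched a RefSeq transcript, 4872 with a symbol. RefSeq gave names and gene order only, its build being another one. Where several probes matched a gene, the one with the highest mean level stood for it. The probe names hold specific for 17780 probes and xhyb for 15119.

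The members, lists and tests were chosen with earlier results of these data known. Named were gpr162, the 10 nearest probes, the 10 named genes of highest and 5 of lowest r, the 5 of highest r inside groups, and the 6 of lowest p in each list (all 5 neighbours), of which 1 receptor is not reported here. Alternatives changed the background, scaling, filter, blocks, weights and arrays. Normexp was run on median signals with an offset of 50, in place of the mean signals that had been planned.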

Additional observations from a re-analysis of the deposited data

Results flagged for a closer look

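Among the 46 probes named by rule, 10 of 92 groups of 4 held a sample far from the other 3 of its group. Chance would give about 4.6 if the groups were independent and the probes unselected. Neither holds, since all share the same 8 arrays and many probes were picked for likeness to gpr162, so nothing is read from the count. In 5 of the 10 it was finasteride 4. It stood at 0.02 for slf2, with the other finasteride arrays between -0.34 and -0.28, at -4.86 for zic5 (others -3.09 to -2.94), at -5.23 for esrrgr (others -4.50 to -4.49), at 4.32 for eml2 (highest of the others 3.91) and at -6.25 for iffo1 (others -5.51 to -5.36). The probes of esrrgr and iffo1 were each well above background on only 3 finasteride arrays. For iffo1, finasteride 4 lay below the weakest signal well above background there (-6.157), so its size has no meaning beyond being dim. Of these genes, slf2, zic5 and esrrgr were picked for their likeness to gpr162 or its opposite, in which finasteride 4 stands apart, and eml2 for likeness inside the groups, so that share follows in part from the choice.

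Finasteride 2 stood at -3.67 for opn4 (others -2.95 to -2.90) and at -3.94 for GT_EA519_mRNA_xhyb_004754 (others -3.38 to -3.31). Control 3 stood at 0.12 for abcg2 (others -0.17 to -0.14) and at -0.72 for gng10 (others 0.29 to 0.37), and control 4 at -1.28 for ncapd2 (others -0.95 to -0.93).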

How the results depend on the processing

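The difference of gpr162 stayed negative in all 22 alternatives, from -3.23 without finasteride 4 to -1.92 with normexp on median signals. As reported, every finasteride array lay below every control array. Leaving 1 array out, fitting 1 slide, or adding blocks or weights therefore could not turn the sign, and the filters left the values unchanged. Only alternatives that changed the signal or its scaling could have turned it. With 1 array left out the difference ran from -3.23 to -2.24, and with array weights it was -3.06. With the replicate number as a block it was -2.57, and 0 probes passed in either direction, so the block changed no call. No pairing was assumed, because finasteride and control arrays of equal number had deviations with r of 0.30, 0.36, -0.06 and -0.03. Arrays numbered 1 and 2 were closest to their namesakes, unlike those numbered 3 and 4.

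Probes higher at the threshold numbered 0, but 1 with median signals without background correction (GT_EA519_mRNA_specific_016719), 1 within slide 2 (c1ql4) and 0 to 2 with 1 array left out. Probes lower numbered 0, and 0 to 6 with 1 array left out, with 6 without control 3 and 2 without finasteride 1. The cause was not tested. These probes were noticed after their values were seen. Receptor, G protein and neighbour members called stayed at 0 in all 22 alternatives, and probes differing between slides at 0 in the 8 run.

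The receptor list's median difference was 0.70 with normexp, where that of all tested probes was 0.23. The 10 nearest probes changed most: 0 to 9 of them were found again with 1 array left out, 1 with normexp and 5 with median signals, so likeness to gpr162 rests on these arrays and this signal. Arrays carry no counts, so signal over background sets the limit. On every control array 5 of the named genes were dim, so these entered the test only through finasteride arrays.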

Other observations

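The mirror image of gpr162, chosen after the values were seen, was found in 7 probes with no gene symbol here, in which finasteride 1, 2 and 3 lay at least 1 above the other 5 arrays. The probe GT_EA519_mRNA_specific_006067 read -4.95, -4.63, -4.37 and -7.28 on finasteride arrays 1 to 4, against -7.39, -7.95, -7.72 and -7.08 on control arrays 1 to 4, and was well above background on 3 finasteride arrays and no control array. Over all 8 arrays its limma adjusted p was 1.00. Its values on the other 5 arrays are not well above background and have no order.

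Of the other 6 mirror probes, 5 were xhyb probes with near-identical values. GT_EA519_mRNA_xhyb_013151 read 0.57, 0.86, 0.61 and -1.77 on finasteride arrays 1 to 4, against -0.71, -1.83, -1.81 and -2.22 on control arrays 1 to 4. GT_EA519_mRNA_xhyb_013366 read 0.68, 0.89, 0.62 and -1.59 on finasteride arrays 1 to 4, against -0.60, -1.92, -1.81 and -2.10 on control arrays 1 to 4. In both, finasteride 4 lay among the control arrays and control 1 lay highest of the controls. Whether the 5 probes read 1 transcript was not tested. The last of the 7, GT_EA519_mRNA_specific_006200, read 1.46, 1.36, 1.09 and -0.54 on finasteride arrays, against -0.18, -1.11, -1.12 and -1.22 on control arrays.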
